A study of Mus musculus with 576 samples.

Results

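The 10 genes described here make and load the MHC class I complex: B2m, H2-K1, H2-D1, Tap1, Tap2, Tapbp, Psmb8, Psmb9, Psmb10 and Nlrc5. They were chosen by name, as the rows of the count table that carry these symbols, and all 10 were found among 49466 rows. No measured value entered this rule, but the members were chosen with earlier results of these data known. All 10 passed the low-count filter that left 20040 genes for testing, Nlrc5 only through counts that came almost wholly from single cells. They were measured in single cells of mouse embryonic liver (embryonic day 14.5, strain C57/Bl6J). The liver was depleted with antibodies to Ter119, CD41 and CD16/32, to CD11b, Ly-6G, CD45R and CD3e, and to Sca-1, then sorted on CD117, CD71 and CD24 to enrich burst forming unit-erythroid cells, the early committed progenitors of the red cell lineage. All groups went through the same sort, which preceded culture, and the same medium with stem cell factor (100 ng/mL), insulin-like growth factor 1 (40 ng/mL) and erythropoietin (2 U/mL). The groups differed in time in culture (24, 48 or 72 h, called days 1, 2 and 3) and in the synthetic glucocorticoid dexamethasone, absent in control and present at 100 nM in the others.

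MHC class I molecules show peptides from inside the cell to T cells on the surface of nearly all nucleated cells. A heavy chain (H2-K or H2-D in this strain) pairs with beta-2-microglobulin. The proteasome cuts the peptides, the Tap1 and Tap2 transporter carries them into the endoplasmic reticulum, and tapasin (Tapbp) holds the empty heavy chain beside the transporter. Interferon-gamma is known to replace the 3 constitutive catalytic proteasome subunits Psmb5, Psmb6 and Psmb7 with Psmb8, Psmb9 and Psmb10, the immunoproteasome, and Nlrc5 is known as the transactivator of class I promoters. Red cells of the mouse lose their nucleus, and class I expression is known to decline as erythroid cells mature.

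Each combination of day and treatment was 1 plate of 96 wells, so plate, sequencing lane and group coincide and cannot be told apart, and the labels do not say that plates came from separate animals or cultures. Counts were summed over the 92 to 96 kept cells of a plate, which gave 88178493 to 116623968 counts per plate. Levels are counts scaled to a fixed library total (CPM) scaled by TMM, a method that corrects for a few abundant genes. Mt2, Fkbp5, Per1 and Tsc22d3, known glucocorticoid targets, were each higher on every dexamethasone plate than on every control plate, for example Tsc22d3 at 72.8 to 81.6 against 23.4 to 37.6 CPM. The culture was not purely erythroid. The summed level of 10 neutrophil and monocyte markers was 1353, 2.94 and 1770 CPM on the control plates of days 1, 2 and 3 against 323, 519 and 567 CPM on the dexamethasone plates. Of 10 macrophage markers, C1qa, C1qb, C1qc and Cd5l had no count on any plate, Cd68 was at 7.60 to 10.4 CPM on each plate and Csf1r at 26.2 and 23.4 CPM on the day 3 plates. The summed level of that list was 8.50 to 43.6 CPM in control and 12.1 to 37.6 CPM with dexamethasone, and DESeq2 called 1 of its 5 tested genes higher (Adgre1, mean 1.94 CPM). The summed level of 12 late erythroid genes (globins, Slc4a1, Alas2 and others) was 1575, 16311 and 28675 CPM against 969, 1959 and 9269 CPM on the same plates. In plate sums, fewer cells that carry a gene and less RNA of it per cell cannot be told apart, which is why shares of cells follow the levels.

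Of the 10 genes, 7 lie on chromosome 17 within the mouse MHC (H2) region or beside it, in build GRCm38. H2-K1 (ENSMUSG00000061232) is at chr17:33996017-34000347 on the minus strand, H2-D1 (ENSMUSG00000073411) at chr17:35262730-35267499, and Tapbp at chr17:33915899-33929292. Psmb9 (chr17:34181987-34187764, minus strand), Tap1 (chr17:34187553-34197225), Psmb8 (chr17:34197721-34201454) and Tap2 (chr17:34203527-34216321) are neighbours. B2m (ENSMUSG00000060802) is at chr2:122147686-122153083, Nlrc5 at chr8:94434356-94527272 and Psmb10 at chr8:105935735-105938444 on the minus strand. In GENCODE vM21 Tap1 and Psmb9 overlap head to head, and Tap2 and Psmb8 overlap the antisense gene Gm20496. The strand setting of the counting is not given in the sources used here, so reads in these overlaps may be exchanged. Of the 50-base words of their transcripts, H2-D1 shared 14.3% and H2-K1 8.11% with other genes, chiefly each other and H2-Q genes, and B2m, Psmb8, Psmb9, Psmb10 and Nlrc5 shared none.

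RefSeq promoter windows (GRCm38.p6, 250 bases before to 50 after a start) were matched for 8 genes and not for Tap2 and Nlrc5. The stretches before the starts of B2m, H2-K1 and H2-D1 are shown because these were the most abundant members, and the stretch between the RefSeq starts of Psmb9 and Tap1 because both genes read outward from it. They lie at chr2:122147437-122147686 (plus strand), chr17:34000348-34000597 (minus strand), chr17:35262844-35263093 (plus strand) and chr17:34187331-34187555 (plus strand, read towards Tap1). Capitals mark matches, on either strand, to GAAANNGAA (the core of the interferon-stimulated response element, ISRE), GGGATTCCC (the kappaB element of class I enhancer A), TGACG (the core of the X2 box) and CCAAT (the Y box core).
B2m: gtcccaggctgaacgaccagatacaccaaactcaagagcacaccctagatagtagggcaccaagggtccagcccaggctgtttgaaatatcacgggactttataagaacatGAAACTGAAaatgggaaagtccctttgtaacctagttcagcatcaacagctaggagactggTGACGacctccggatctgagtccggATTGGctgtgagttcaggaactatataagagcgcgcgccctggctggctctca
H2-K1: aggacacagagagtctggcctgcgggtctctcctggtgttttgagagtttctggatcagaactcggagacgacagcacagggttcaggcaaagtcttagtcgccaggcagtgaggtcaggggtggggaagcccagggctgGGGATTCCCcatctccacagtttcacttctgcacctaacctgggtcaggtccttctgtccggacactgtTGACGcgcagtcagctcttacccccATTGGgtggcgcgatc
H2-D1: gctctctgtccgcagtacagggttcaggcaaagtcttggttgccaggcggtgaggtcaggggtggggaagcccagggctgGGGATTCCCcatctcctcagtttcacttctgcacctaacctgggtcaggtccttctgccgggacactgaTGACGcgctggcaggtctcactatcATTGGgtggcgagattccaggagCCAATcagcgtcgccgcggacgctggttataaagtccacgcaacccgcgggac
Psmb9 to Tap1: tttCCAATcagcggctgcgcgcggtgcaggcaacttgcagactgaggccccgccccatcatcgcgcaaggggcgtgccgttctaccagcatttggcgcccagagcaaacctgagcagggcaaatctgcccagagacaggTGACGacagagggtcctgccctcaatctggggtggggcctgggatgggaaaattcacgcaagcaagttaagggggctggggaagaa

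The H2-K1 and H2-D1 stretches were 90.96% identical over 177 aligned bases and held the same order of marked elements, kappaB, X2 core and CCAAT. The kappaB letters occurred in these 2 genes of 8, and in 0.353% of 32851 promoter windows of the genome. B2m alone held the ISRE core letters GAAANNGAA (8.56% of windows), and it held no kappaB letters. Each pattern is a fixed form of its element, so a variant form in any of these windows would not be marked. The CCAAT core was in 6 of 8 (37.4% of windows) and the X2 core in 5 of 8 (20.8%). The windows of Tap1 and Psmb9 overlap, and their CCAAT and X2 matches are the same bases, counted for both genes. Psmb8 alone held TTCNNNGAA, the form bound by STAT factors (8.30% of windows). ACANNNTGT, part of a glucocorticoid response element, was in none of the 8 windows and in 6.85% of all windows. A match is a description of letters in this window and shows no binding.

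Compared per kilobase of exon, the mean level over the 6 plates was highest for B2m, at 259 CPM per kb (plates 178 to 373). H2-D1 followed with 125 CPM per kb (104 to 150) and H2-K1 with 117 CPM per kb (86.4 to 138). The order of these heavy chains turned with the length used, 153 for H2-D1 against 183 CPM per kb for H2-K1 over the longest transcript. Psmb10 stood at 30.3 CPM per kb (17.6 to 47.4), Tapbp at 24.1 (14.5 to 34.1) and Tap2 at 14.4 (10.3 to 19.2), and neighbours among these overlapped between plates. Psmb8 (5.43), Tap1 (5.35) and Psmb9 (2.15 CPM per kb) were lower, and Nlrc5 was at 0.034 CPM per kb. The light chain and the heavy chains were thus abundant transcripts of these cells, and the transactivator was barely detected.

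The first comparison asks how dexamethasone changed these genes over the 3 days. The culture with dexamethasone held more mRNA of most of the class I machinery on days 2 and 3: 5 of the 10 genes were higher in sign on day 1, 8 on day 2 and 10 on day 3, where 49.3%, 51.9% and 51.5% of all genes tested were higher. Nlrc5, with no control count on days 1 and 3, is among these counts. Over the 3 days together 9 of 10 were higher in sign, with a median log2 fold change of 0.58 against 0.07 over all genes. B2m, Tap2, Psmb8 and Psmb10 were higher on each of the 3 days, which held for 19.1% of all genes. None of the 10 passed an adjusted p of 0.05 in edgeR, where 0% of the 20040 genes did, and 4 (B2m, Tap2, Psmb8 and Psmb10) had an unadjusted p under 0.05, against 10.3% of all genes. That count was 6 without the control plate of day 1, 5 without the dexamethasone plate of day 1, 0 without the control plate of day 2 and 1 without any one of the remaining plates. The share of all genes was 10.1% and 10.2% without the control or the dexamethasone plate of day 1, 4.58% without the control plate of day 2 and 4.59% to 5.54% without one of the others, so it too was lower where the members' count was lower. DESeq2 called Tap2 higher and none of the 10 lower, against 2.96% and 4.47% of its 16931 genes. With 1 plate per day and treatment, the test has 2 residual degrees of freedom, so a gene without a call may still differ.
Markers of other cell types also differed between the treatments on these days. The summed level of 10 megakaryocyte markers was 450, 190 and 138 CPM on the control plates against 489, 590 and 402 CPM on the dexamethasone plates. Of 8 tested, DESeq2 called Itga2b and Gp1bb higher and Vwf lower. The mean rho of that list across cells was above 0 for 8 of the 9 members other than Nlrc5, with a median of 0.11, and on every plate for 1 (Tap2). The summed level of 10 mast cell and basophil markers was 53.5, 4.59 and 58.4 CPM against 31.1, 813 and 43.4 CPM, with Hdc, the histamine-forming enzyme, giving 692 CPM on day 2 with dexamethasone. The part of these cells in the class I differences was not tested.

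**Figure D1:**
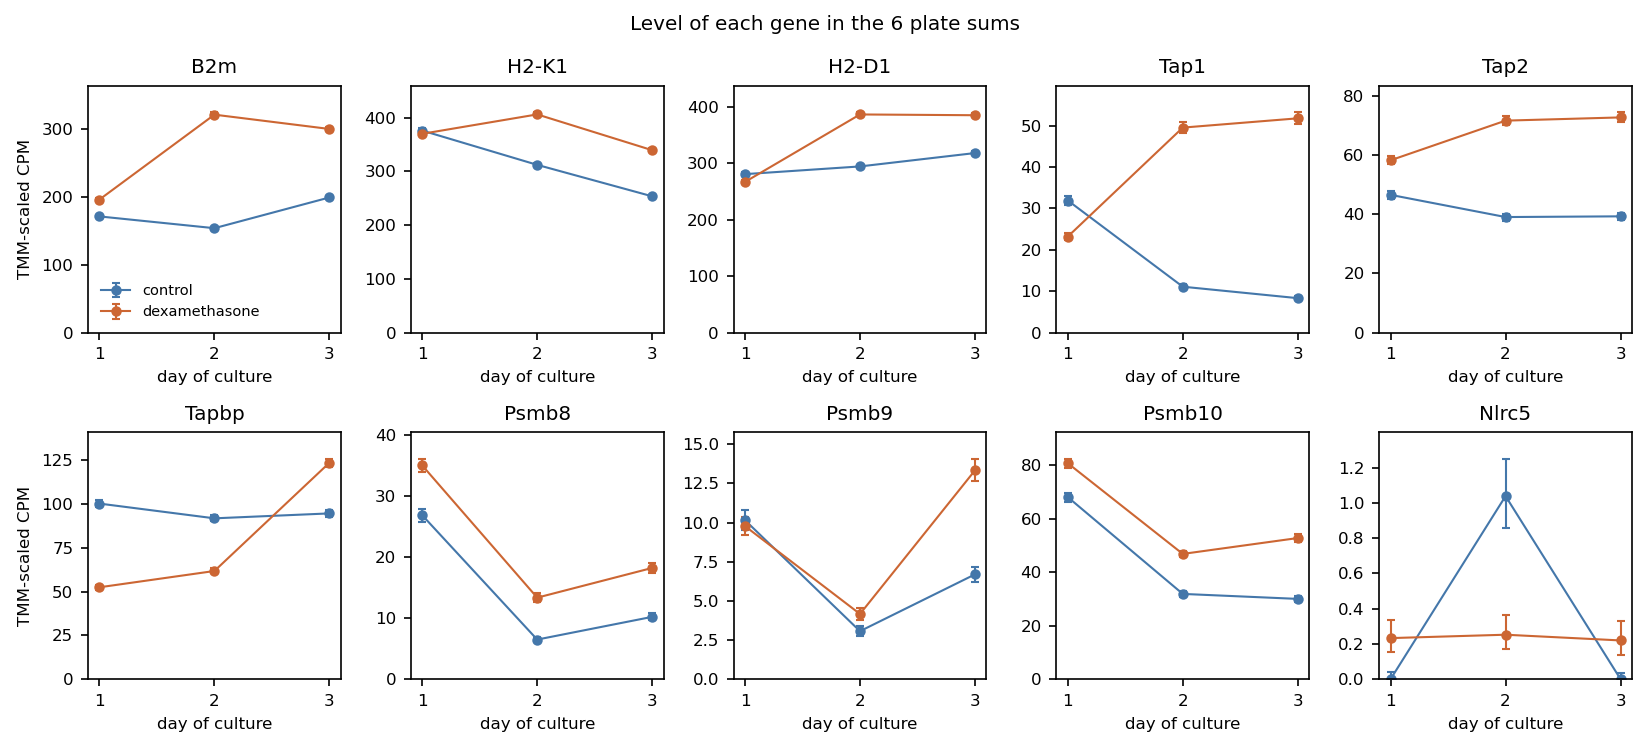
TMM-scaled CPM (y axis, from 0, own scale per gene) of the 10 genes against day of culture for the control plates (blue) and the dexamethasone plates (orange), 1 plate per point, with exact 95% Poisson intervals of the counts. Tap2 is the gene whose 3 dexamethasone plates (58.2 to 72.7 CPM) all lie above its 3 control plates (39.1 to 46.6 CPM), while Tapbp crosses over between days 2 and 3.

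B2m, the light chain shared by all class I molecules, measured 171, 154 and 199 CPM on the control plates of days 1, 2 and 3 against 196, 320 and 299 CPM on the dexamethasone plates. The dexamethasone plates of days 2 and 3 lay above every control plate, and that of day 1 lay just under control day 3. The means were 174 ± 22.8 and 272 ± 66.8 CPM (SD, n = 3 plates each). The log2 fold change was 0.62 (SE 0.20, edgeR adjusted p = 0.463, DESeq2 adjusted p = 0.0832), with fold differences of 1.145, 2.088 and 1.51 by day. Without the control or the dexamethasone plate of day 2 it was 0.39.

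The heavy chains differed less. H2-K1 measured 376, 312 and 254 CPM on the control plates against 370, 406 and 340 CPM on the dexamethasone plates, so the control level was lower on each later day and the plates overlapped. H2-D1 measured 281, 295 and 318 CPM on the control plates against 267, 387 and 385 CPM on the dexamethasone plates, 0.951-fold of control on day 1 and above every control plate on days 2 and 3. The log2 fold changes were 0.26 (SE 0.14) for H2-K1 and 0.20 (SE 0.14) for H2-D1, with edgeR adjusted p of 0.561 and 0.661. These genes share sequence, and how reads that fit both were counted is not given in the sources used here.

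Tap1, the first chain of the peptide transporter, had the widest split of the members measured in many cells. It measured 31.9, 11.1 and 8.32 CPM on the control plates against 23.2, 49.6 and 51.8 CPM on the dexamethasone plates. Control was the higher plate on day 1, and dexamethasone was 4.47-fold higher on day 2 and 6.22-fold higher on day 3. Over the 3 days the log2 fold change was 1.51 (SE 0.74, edgeR adjusted p = 0.54, DESeq2 adjusted p = 0.0832). Without the control or the dexamethasone plate of day 1 it was 2.374 or 2.399, and without that of day 3 it was 0.85 or 0.83. A share of 20% of all genes was at least 2-fold higher on day 2 and 21.6% on day 3.

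Tap2, the second chain of the transporter, measured 46.6, 39.1 and 39.3 CPM on the control plates against 58.2, 71.6 and 72.7 CPM on the dexamethasone plates. Every dexamethasone plate lay above every control plate, which was so for 1 of the 10 genes and for 7.14% of all genes tested. The log2 fold change was 0.70 (SE 0.18, edgeR adjusted p = 0.457) and the DESeq2 adjusted p was 0.0376. Tap1 and Tap2 form a pair in the cell, and their control values differed in course: Tap1 went from 31.9 to 8.32 CPM between days 1 and 3 while Tap2 stayed within 39.1 to 46.6 CPM.

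Tapbp, the bridge between transporter and heavy chain, went the other way on days 1 and 2. It measured 100, 91.8 and 94.7 CPM on the control plates, a narrow range, against 52.4, 61.8 and 124 CPM on the dexamethasone plates. Control was 1.91-fold higher on day 1 and 1.49-fold higher on day 2, and dexamethasone 1.31-fold higher on day 3. It had the single negative log2 fold change of the 10, -0.38 (SE 0.30), and its edgeR adjusted p was 0.711.

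The inducible proteasome subunits had their lowest dexamethasone level on day 2, and so did Psmb8 and Psmb9 in control. Psmb8 measured 26.8, 6.47 and 10.2 CPM on the control plates against 35, 13.3 and 18.2 CPM on the dexamethasone plates. Psmb9 measured 10.1, 3.06 and 6.69 CPM on the control plates against 9.77, 4.16 and 13.3 CPM on the dexamethasone plates. Psmb10 measured 68.1, 31.9 and 30.02 CPM on the control plates against 80.8, 46.9 and 52.8 CPM on the dexamethasone plates. Within each day Psmb8 and Psmb10 were higher with dexamethasone, and Psmb9 was so on days 2 and 3. The log2 fold changes were 0.75 (SE 0.24) for Psmb8, 0.46 (SE 0.34) for Psmb9 and 0.54 (SE 0.17) for Psmb10, with edgeR adjusted p of 0.457, 0.695 and 0.459.

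Nlrc5 had 0, 112 and 0 counts in control and 28, 29 and 22 counts with dexamethasone, at most 1.04 CPM. Of the 112 counts, 99.1% came from 1 cell, and on the dexamethasone plates 1 cell also gave 96.4% to 100% of the counts. These are single cells, and no direction can be read for the gene.

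**Figure D2:**
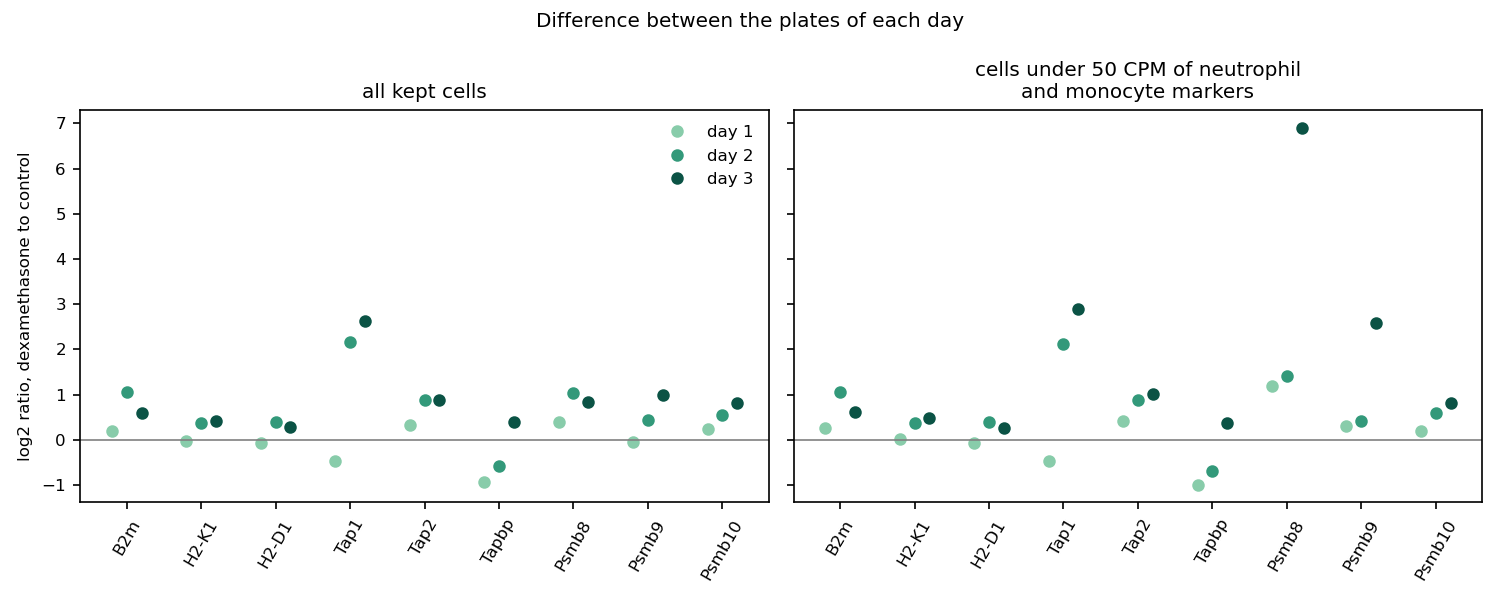
Log2 ratio of dexamethasone to control (y axis) for 9 genes on days 1, 2 and 3 (light to dark), from the plate sums of all kept cells (left) and of cells under 50 CPM of neutrophil and monocyte markers (right). Points above the grey line are higher with dexamethasone; Tap1 and Tapbp have both signs on either side, and Psmb8 on day 3 moves from 0.84 to 6.89.

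Much of the Psmb8 and Psmb9 signal lay in cells with neutrophil and monocyte markers. Across the cells of a plate, the rho with that marker list was above 0 on all 6 plates for 4 of 9 genes: Psmb8 (mean 0.34), Psmb9 (0.23), Tap1 (0.22) and B2m (0.21). In the plate sums of days 1 and 3 the markers were higher in control and Psmb8 was higher with dexamethasone. On day 2 both were higher with dexamethasone, the markers at 519 against 2.94 CPM and Psmb8 at 13.3 against 6.47 CPM. Cells with at least 50 CPM of those markers numbered 25, 1 and 12 on the control plates and 12, 5 and 9 with dexamethasone. They held 73.3%, 43.8% and 99.4% of the Psmb8 counts of control days 1, 2 and 3, and 45.5%, 28.3% and 44.6% with dexamethasone. In the other cells Psmb8 measured 9.28, 3.51 and 0.0685 CPM on the control plates against 21.97, 10.3 and 11.1 CPM on the dexamethasone plates, and the plates of the treatments did not overlap. Without the marked cells, a choice made after seeing the data, Psmb8 had 2.68 (SE 1.44, edgeR adjusted p = 0.527) in place of 0.75 for the log2 fold change.
Psmb9 had 58.1%, 18.5% and 79.2% of its control counts in the marked cells. In the other cells it measured 5.52, 2.41 and 1.53 CPM on the control plates against 7.09, 3.48 and 9.85 CPM on the dexamethasone plates, higher with dexamethasone on each day but with overlapping plates. Its log2 fold change without the marked cells was 1.08 (SE 0.64, edgeR adjusted p = 0.57) in place of 0.46. The marked cells held at most 34.2% of the B2m counts, 41.4% of the Tap1 counts and 31.97% of the Tap2 counts of a plate. Without them B2m had a log2 fold change of 0.65, Tap1 of 1.59, Tap2 of 0.77 and Psmb10 of 0.54, close to the values in all cells. Tap2 and Psmb8 were then the members with every dexamethasone plate above every control plate, against 7.52% of all genes. Without cells with 2 or more of the markers, B2m, Tap2 and Psmb8 were these 3 members, against 7.55% of all genes. This choice left out 47, 0 and 53 of the 94, 96 and 93 control cells of days 1, 2 and 3. With dexamethasone it left out 26, 23 and 34 of the 94, 92 and 94 cells.

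The ratio of an inducible subunit to the constitutive subunit it replaces sets its level against that single subunit. Per kilobase, Psmb10 was at 87.2%, 36.7% and 33.03% of Psmb7 in control and 93.2%, 58.2% and 64.6% with dexamethasone. Psmb8 was at 5.06%, 1.26% and 1.41% of Psmb5 in control and 5.10%, 2.61% and 2.74% with dexamethasone. Psmb9 was at 2.03%, 0.676% and 1.11% of Psmb6 in control and 1.62%, 1.001% and 2.66% with dexamethasone. In 8 of 9 pairs of plates the ratio was higher with dexamethasone, the exception being Psmb9 on day 1. Over the 3 days together the constitutive subunits differed little, with log2 fold changes of 0.08 (SE 0.14) for Psmb5 and -0.04 (SE 0.12) for Psmb7. Within days 1, 2 and 3 the log2 ratios, here at a prior count of 0.5, were 0.37, -0.01 and -0.12 for Psmb5. They were 0.27, -0.12 and -0.26 for Psmb6 and 0.15, -0.11 and -0.15 for Psmb7. These differences enter the subunit ratios of each day. Psmb10 was thus nearly as abundant per length as Psmb7 on day 1, while Psmb8 and Psmb9 were at 5.10% of their counterparts or less. Over the longest transcript in place of all exons, Psmb8 was at 2.23% to 9.03% of Psmb5, and Psmb9 at 0.442% to 1.74% of Psmb6. The length scales every plate of a pair alike, so it cannot change the order of the plates. Psmb5 shares 57.1% of its 50-base words with other genes, chiefly the pseudogene Gm3375, so its level is uncertain.

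**Figure D3:**
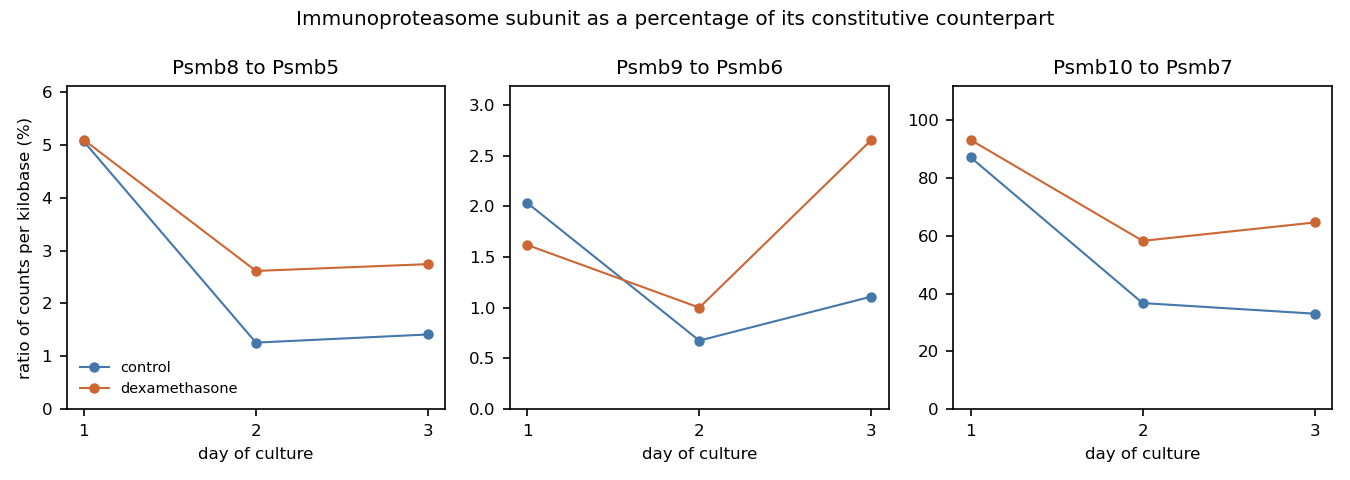
Counts per kilobase of Psmb8, Psmb9 and Psmb10 as a percentage of Psmb5, Psmb6 and Psmb7 (y axis, from 0) against day of culture, 1 plate per point, control in blue and dexamethasone in orange. All 3 control ratios are lower on days 2 and 3 than on day 1, and the orange line lies above the blue one except for Psmb9 on day 1.

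The second comparison is time in culture, shared over both treatments. Psmb8 and Psmb10 had lower levels on days 2 and 3 than on day 1 under both treatments, and H2-D1 higher ones. None of the 10 genes was called in edgeR for day 3 or day 2 against day 1, where 0% of all genes were. At an unadjusted p under 0.05, edgeR had 2 members for day 3 (14.5% of all genes) and 3 for day 2 (12.2%). In DESeq2, Psmb8 and Psmb10 were lower on day 3 than on day 1, against 5.79% of genes called lower, with log2 fold changes of -1.17 and -0.89 (DESeq2 adjusted p of 0.0116 and 0.00993). From day 1 to day 2, DESeq2 called Psmb8 (-1.72), Psmb9 (-1.50) and Psmb10 (-0.94) lower, against 4.48% of genes. The edgeR log2 fold changes for day 3 were -1.18 (SE 0.29, adjusted p = 0.249) for Psmb8 and -0.90 (SE 0.21, adjusted p = 0.237) for Psmb10, and 0.40 (SE 0.24) for B2m and 0.35 (SE 0.17) for H2-D1. The neutrophil and monocyte markers were highest on control days 1 and 3, and their part in the course of Psmb8 and Psmb9 over the days was not tested; without the marked cells Psmb8 had a day 2 log2 fold change of -1.28 (SE 1.47) and Psmb10 one of -1.004 (SE 0.22).

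In single cells, the light and heavy chains were found nearly everywhere, and Nlrc5 in at most 2.13% of the cells of a plate. The other 6 genes were found in a larger share of dexamethasone than of control cells on days 2 and 3. How many of all genes did so was not computed, so this is not shown to be particular to these 6 genes. B2m, H2-K1 and H2-D1 had a count in at least 96.8% of the cells of every plate. Tap1 was found in 57.4%, 27.1% and 11.8% of control cells on days 1, 2 and 3 and in 62.8%, 76.1% and 62.8% of dexamethasone cells. On day 3 the exact 95% intervals were 6.05% to 20.2% and 52.2% to 72.5%. Tap2 was found in 75.5%, 58.3% and 54.8% of control cells and in 90.4%, 93.5% and 96.8% of dexamethasone cells. The intervals of the treatments did not overlap on days 2 and 3 for Tap1 or Tap2. These intervals, like those of levels, cover counting error only, since reads are not independent molecules and cells of a plate are not replicates.
Psmb8 was found in 50%, 14.6% and 9.68% of control cells and in 73.4%, 40.2% and 50% of dexamethasone cells. Psmb9 was found in 32.98%, 13.5% and 15.1% against 44.7%, 28.3% and 44.7%. Psmb10 was found in 96.8%, 62.5% and 55.9% against 98.9%, 89.1% and 91.5%. Tapbp was found in 95.7%, 85.4% and 88.2% against 94.7%, 93.5% and 98.9%, so on day 2 more dexamethasone cells carried a count while the plate level was lower. As background, the T cell gene Cd3e and the hepatocyte gene Alb had a count in 1 cell each of 563. In cells thinned to 620000 counts, which leaves out 54 shallower cells, Tap1 was at 53.2%, 26.9% and 11.2% against 53.3%, 76.1% and 60%, and Psmb10 at 97.5%, 67.9% and 52.8% against 97.8%, 90.9% and 92.9%. Measures of the cells differed with treatment as well. The median number of genes found per cell was 8119, 7556 and 6961 on the control plates against 8923.5, 8829 and 8520.5 on the dexamethasone plates. Mitochondrial genes took 3.91%, 3.47% and 3.38% against 3.93%, 4.61% and 5.69% of the counts of the median cell. The part of either in the shares and levels of the members was not tested.

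**Figure D4:**
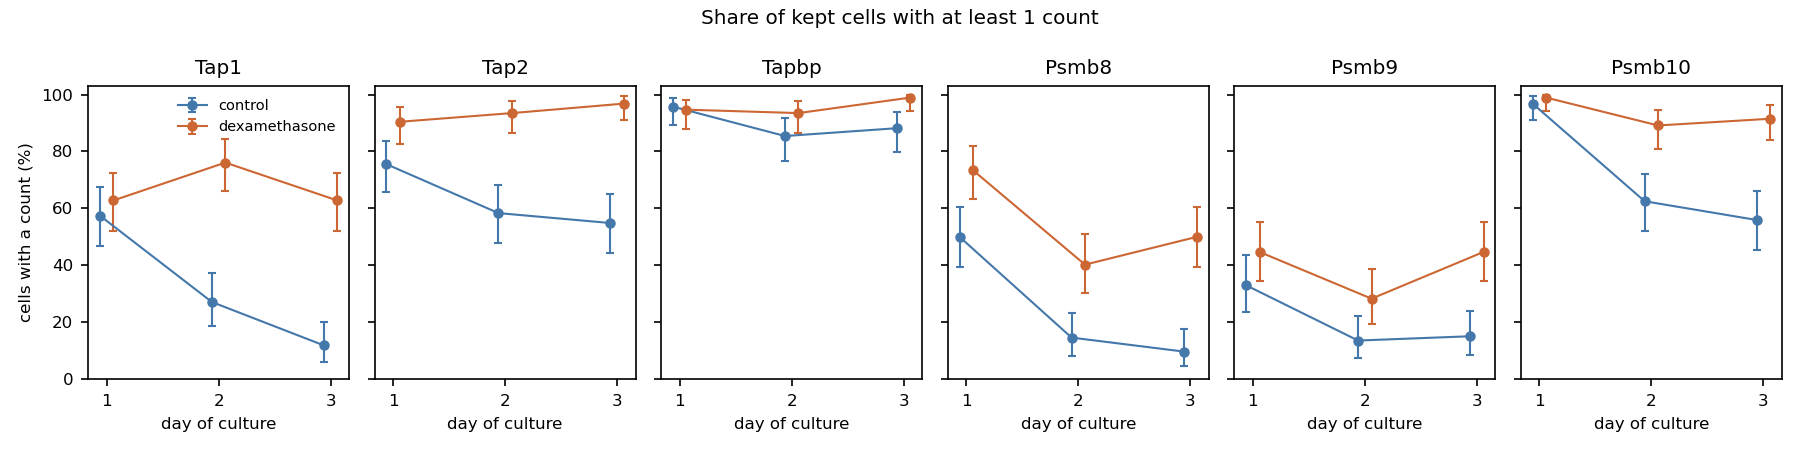
Share of kept cells with at least 1 count (y axis, percent) for Tap1, Tap2, Tapbp, Psmb8, Psmb9 and Psmb10 against day of culture, control in blue and dexamethasone in orange, with exact 95% binomial intervals over 92 to 96 cells per plate. On days 2 and 3 the orange share lies above the blue one for all 6 genes, with Tap1 on day 3 at 62.8% against 11.8%. How many of all genes did so was not computed.

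The plate level and the typical cell parted for Tap1 on day 1. The median cell had 1.57 CPM in control and 5.41 CPM with dexamethasone, the reverse of the plate sums, and the 5 highest control cells gave 34.6% of the control counts. On control day 3, 5 cells gave 84.2% of the Tap1 counts and 99.5% of the Psmb8 counts. B2m was spread evenly, with the 5 highest cells giving 14.6% to 21.6% of a plate's counts. The median cell had 150, 102 and 156 CPM of B2m in control and 174, 302 and 276 CPM with dexamethasone, so the difference between treatments on days 2 and 3 was also that of the typical cell. For H2-K1 the median cell held 373, 238 and 181 CPM against 374, 390 and 357 CPM, a wider split than in the plate sums.

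Across the cells of a plate, the members varied together weakly. Spearman's rho of log2(CPM + 1), averaged over the 6 plates, was above 0 for 35 of 36 pairs of the 9 genes other than Nlrc5, with a median of 0.12, and 9 pairs were above 0 in every plate. Psmb8 and Psmb9 had the highest mean, 0.37 (0.13 to 0.63 over plates), and Tap1 and Psmb9, which share the stretch printed above, had 0.28 (0.19 to 0.42). The annotated Tap1 and Psmb9 genes overlap, and reads exchanged there may enter their value. The heavy chains H2-K1 and H2-D1 had 0.23 (0.026 to 0.44). The cells of a plate share a library preparation, and depth and dropout enter all of these values. No background over other pairs of genes was computed for the counts of pairs. These counts are therefore not shown to be particular to the class I genes. The part of cells with neutrophil and monocyte markers in the rho of the pairs was not tested. The mean rho with the number of genes found per cell was above 0 for all 9 genes, with a median of 0.095, but on every plate for Psmb10 alone. Psmb10 had a mean of 0.38, the highest of the 9 genes, and the part of this in its level was not tested.

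The mean rho with the late erythroid list was below 0 for all 9 genes, from -0.40 for Psmb8 to -0.065 for Tapbp, with a median of -0.31. No background over all genes was computed for this list, the other lists, Kit or the number of genes found per cell. These values are therefore not shown to be particular to the class I genes. It was below 0 on every plate for 3 of the 9 (Tap1, Psmb8 and Psmb9). H2-K1 ran from -0.58 to 0.047 over the plates, H2-D1 from -0.37 to 0.089 and Tap2 from -0.51 to 0.069. Psmb10 had -0.72 and -0.71 on control days 2 and 3, and 0.13 on day 1 with dexamethasone. B2m had -0.39, -0.52 and -0.42 on the control plates and -0.28, 0.006 and -0.26 with dexamethasone. The median cell's mean log2 level of the late erythroid list was 2.90, 8.22 and 9.46 on the control plates and 2.15, 3.63 and 5.86 with dexamethasone. The treatments thus differed in this measure in the same samples in which the class I genes differed, and its part in the dexamethasone differences was not tested. Kit, the stem cell factor receptor, measured 314, 139 and 49.5 CPM on the control plates against 489, 738 and 279 CPM on the dexamethasone plates, and its mean rho with the 9 genes ran from 0.046 for Tapbp to 0.25 for Psmb10, with a median of 0.13. Psmb10 itself ran from -0.12 on day 2 with dexamethasone to 0.64 on day 2 in control, and Psmb8 had -0.49 on day 1 with dexamethasone.

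**Figure D5:**
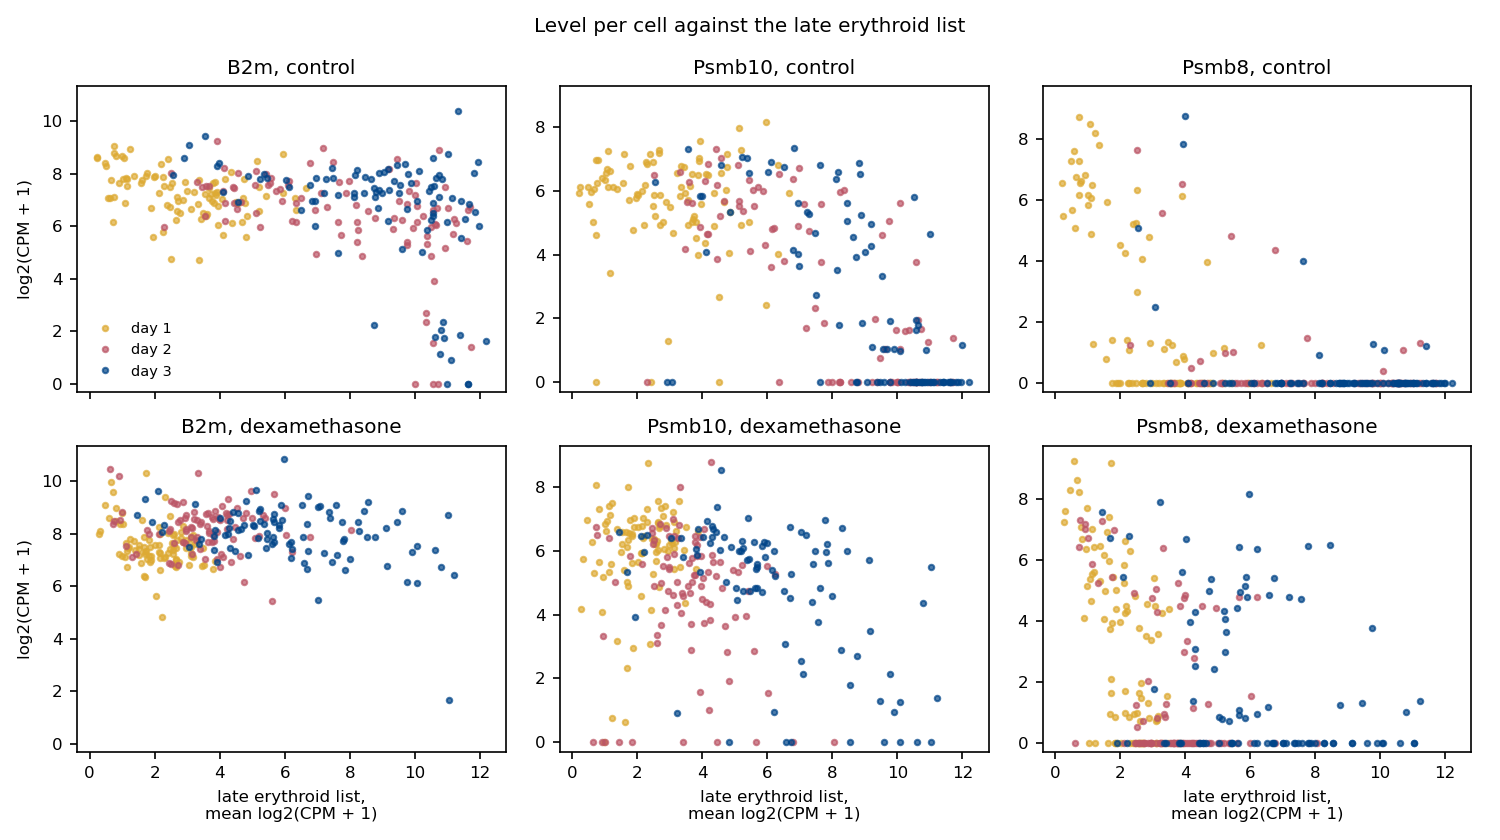
Log2(CPM + 1) of B2m, Psmb10 and Psmb8 (y axis) against the mean log2(CPM + 1) of 12 late erythroid genes (x axis), 1 point per kept cell, colored by day, control above and dexamethasone below. Psmb10 is at 0 in many control cells of days 2 and 3 at the right, where the median list level is 8.22 and 9.46, while B2m is found in nearly all cells.

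The genes whose levels followed B2m most closely across cells, among 9571 found in at least 30% of cells, included Arpc1b (mean rho 0.45), Srgn (0.42), Laptm5 (0.39) and Sh3bgrl3 (0.38). Arpc1b is a subunit of the actin-nucleating Arp2/3 complex, Srgn the granule proteoglycan serglycin and Laptm5 a lysosomal membrane protein of blood cells. The median over all genes compared was 0.019. For H2-K1 they were Fasn and Scd2, enzymes of fatty acid synthesis and desaturation, Bri3bp, H2-D1 and Nol10, at 0.23 to 0.24. For H2-D1 they were H2-K1, Laptm5, Lman1, B2m and Clic1, at 0.20 to 0.23. Both heavy chains were thus in each other's list, and B2m in that of H2-D1.

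The rest of the pathway was described by fixed lists, with DESeq2 calls since edgeR made none. Of 16 class Ib and related genes 10 were tested, 7 of them positive; the median was 0.26 and none was called. H2-T23, which encodes the Qa-1 heavy chain, measured 21.4, 24.3 and 35.6 CPM on the control plates against 16.8, 45.9 and 46.1 CPM on the dexamethasone plates, a course like that of H2-D1 with day 1 lower. H2-T24 had a log2 fold change of -0.31 (SE 0.31). Of 10 genes for peptide loading, trimming and the PA28 activator 6 were higher, with a median of 0.20 and none called. Lnpep, an aminopeptidase that trims peptides for cross-presentation, measured 46.3, 55.9 and 44.7 CPM on the control plates against 52.8, 132 and 68.9 CPM on the dexamethasone plates. Tapbpl, the tapasin-related peptide editor, measured 22.02, 8.44 and 15.5 CPM on the control plates against 6.25, 12.5 and 11.2 CPM on the dexamethasone plates, lower on day 1 as Tapbp was. Of 11 other subunits of the 20S proteasome 10 were higher, with a median of 0.20 and none called, from Psma5 (0.38, SE 0.17) to Psma1 (-0.06, SE 0.19).

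The known regulators of class I promoters showed no common direction. Of 10 transactivators, Nlrc5 among them, 3 were higher in sign and none called, with a median of -0.17. Creb1, which binds the X2 box, measured 66.9, 45.03 and 76.8 CPM on the control plates against 61.3, 48.7 and 32.1 CPM on the dexamethasone plates, and Atf1 had a log2 fold change of -0.06 (SE 0.12). Of 8 NF-kappaB subunits and inhibitors 6 were higher with a median of 0.29 and none called; Rela had -0.09 (SE 0.15) and Nfkbia, the inhibitor that glucocorticoids are known to induce, 0.59 (SE 0.36). Of 15 genes of interferon receptors and signalling 9 were higher with a median of 0.13.
DESeq2 called a pair of these, both feedback inhibitors of cytokine signalling, in opposite directions. Socs1 measured 0.927, 0.176 and 0.589 CPM on the control plates against 5.36, 6.20 and 6.56 CPM on the dexamethasone plates (DESeq2 adjusted p = 2.02e-05). Socs3 measured 3.92, 8.996 and 12.03 CPM on the control plates against 0.69, 1.24 and 2.49 CPM on the dexamethasone plates (DESeq2 adjusted p = 2.28e-07). Neither had overlapping plates. Ifngr1, a chain of the interferon-gamma receptor, measured 109, 64.3 and 51.4 CPM on the control plates against 118, 94.5 and 84.2 CPM on the dexamethasone plates, and Jak2, the kinase of the erythropoietin and interferon-gamma receptors, had a log2 fold change of -0.82 (SE 0.38).

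Interferon-stimulated genes other than the class I genes split in direction. Of 31, 25 were tested and 13 were higher in sign, with a median of 0.06 against 0.58 for the 10 members. DESeq2 called 3 higher (Bst2, Gbp2 and Irgm1) and 5 lower (Ifit1, Oas2, Oasl2, Rsad2 and Irf7). Bst2, the membrane protein tetherin, measured 23.8, 15.6 and 16.5 CPM on the control plates against 30.01, 35.8 and 40.9 CPM on the dexamethasone plates. Irgm1, a GTPase induced by interferon-gamma, measured 42.5, 42.97 and 54.1 CPM on the control plates against 57.5, 81.7 and 86.8 CPM on the dexamethasone plates (DESeq2 adjusted p = 0.0211). Irf7, the master factor of type I interferon induction, measured 1.18, 3.75 and 6.01 CPM on the control plates against 0.233, 0.86 and 1.16 CPM on the dexamethasone plates (DESeq2 adjusted p = 0.00237). Without cells with 2 or more neutrophil and monocyte markers, Irf7 on day 3 was at 0.742 CPM in control and 1.81 CPM with dexamethasone, the reverse order, while days 1 and 2 kept theirs. Without cells at 50 CPM or more of those markers, Irf7 on day 3 kept its order, at 3.06 CPM in control and 1.27 CPM with dexamethasone. Rsad2, an antiviral enzyme, was at 0.257, 1.92 and 5.96 CPM in control and had no count on the dexamethasone plates. Without cells with 2 or more of the markers its control levels were 0, 1.90 and 0.064 CPM. Without cells at 50 CPM or more of them these were 0, 1.93 and 6.88 CPM.
Across cells, the mean rho of the 9 members with the list of interferon-stimulated genes ran from 0.087 for H2-D1 to 0.26 for B2m. Of the genes called lower, Oasl2 reached 149 CPM on control day 3. The others were at 6.01 CPM or less on every plate with all kept cells, while Bst2 and Irgm1 were at 15.6 to 86.8 CPM. Gbp2, a guanylate-binding protein gene called higher, was also low, at 0, 0.482 and 0 CPM on the control plates against 0.906, 0.217 and 1.19 CPM on the dexamethasone plates, so day 2 had the other sign.

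MHC class II genes, which mark antigen-presenting cells and carry peptides from outside the cell, were low. Of 8, 7 were tested and 5 were higher in sign, the median of the log2 fold changes was 1.51, and DESeq2 called H2-Ab1 and H2-Ob higher. H2-Ab1 measured 4.50, 14.3 and 4.46 CPM on the control plates against 17.4, 35.8 and 11.7 CPM on the dexamethasone plates, higher on each day (DESeq2 adjusted p = 3.20e-05). H2-Ob had no count in control and 1.30, 1.65 and 0.858 CPM with dexamethasone. Without cells with 2 or more neutrophil and monocyte markers H2-Ob was at 0.011, 0 and 0.078 CPM with dexamethasone, so nearly all of its counts lay in those cells. Without cells at 50 CPM or more of the markers it was at 1.16, 0.0089 and 0.938 CPM with dexamethasone. On days 1 and 3 most of its counts thus lay in cells under 50 CPM of the markers. The summed level of the 8 class II genes was 13.3 to 17.3 CPM in control and 18.9 to 46.2 CPM with dexamethasone, against 945 to 1112 and 1093 to 1361 CPM for the 10 class I genes. The class II sum was below that of Tap2 on each plate, and the part of antigen-presenting cells in the class I levels was not tested.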

How the data were processed

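Single-cell RNA was counted per gene and well by the authors, and the deposited counts are whole numbers. The submitters' processing notes name STAR 2.4, featureCounts and build GRCm38. The annotation release and the strand and multimapping settings are not given in the labels used, and no molecular identifiers are stated. Of 576 columns, 575 matched a label and 1 was not used; the header line holds 1 empty cell more than the value lines and was read without it. Groups came from the labels. Wells with at least 50000 counts, 1500 genes and at most 20% mitochondrially encoded counts were kept (563 cells of 66140 to 3757116 counts, 12 wells removed) and summed per plate. No doublet caller was run.

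Sums were fitted with edgeR 4.0.16 (quasi-likelihood, TMM, filterByExpr, day and dexamethasone as additive terms, Benjamini-Hochberg over 20040 genes, threshold 0.05), with DESeq2 1.42.0 as an alternative. SE is the size of the log2 fold change over the square root of F. P-values rest on how these plates vary, and that variation may be technical. Log2 ratios within a day used a prior count of 2 and no test. On simulated sums with 200 genes changed 4-fold for dexamethasone, 200 were called among 20040, with 9 false calls. The changed genes were at a mean of 5 CPM or more. The simulated spread between plates was fixed, the same for all genes and not taken from these plates. The simulation thus checks the fit and does not show which changes could be found in these data. Genes named beside the members were those with the largest and smallest fold change per list at a mean of 5 CPM or more and those called by either tool, and for B2m, H2-K1 and H2-D1 the 5 genes most alike across cells (1 of those for B2m is not reported here). Other settings tried were scaling, filters, cell choice and leaving out each plate. GENCODE vM21 gave positions. The members and lists were chosen with earlier results of these data known.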

Additional observations from a re-analysis of the deposited data

Results flagged for a closer look

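Tap1 and Tapbp had dexamethasone differences of opposite direction on different days, with Poisson intervals of the plates apart in each case. Tap1 had a log2 ratio of -0.46 on day 1, 2.16 on day 2 and 2.64 on day 3. On day 1 the median over cells of log2(CPM + 1) had the other sign, with a difference of 1.32. Tapbp had -0.93 on day 1, -0.57 on day 2 and 0.38 on day 3. With 1 plate per day and treatment the difference between days was not tested.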

How the results depend on the processing

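No gene passed the threshold in edgeR for any of the 3 coefficients, and this held under each alternative other than DESeq2 and the filter at a mean of 50 CPM. DESeq2 called 1258 genes for dexamethasone, 2061 for day 3 and 1550 for day 2, among them 1, 2 and 3 members. With genes at a mean of 50 CPM or more, edgeR called 38, 545 and 233 genes and none of the 6 members tested. The newer quasi-likelihood fit called none. Members with every dexamethasone plate above every control plate numbered 3 (B2m, Tap2 and Psmb8) without cells that carried 2 or more neutrophil and monocyte markers, and 2 without cells at 50 CPM or more of them, an alternative chosen after seeing the data, against 7.55% and 7.52% of all genes.

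For dexamethasone over the 3 days the sign of 9 members held under every alternative, with log2 fold changes of 0.39 to 0.83 for B2m, 0.59 to 0.88 for Tap2 and 0.83 to 2.399 for Tap1. Nlrc5 turned to -0.50 in the newer fit and to -0.56 with no day term. For day 3 against day 1, Tap2 was -0.040 without TMM and -0.18 in the mean of cells' CPM, and Nlrc5 0.12 without cells with 2 or more markers. For day 2, Tap2 was -0.039 without TMM and -0.082 in the mean of cells' CPM, and Tapbp -0.026 without TMM. Leaving out 1 plate at a time, the day 3 values ran from -1.82 to 1.04 for Tap1, -0.25 to 0.31 for Tap2, -0.47 to 0.32 for Psmb9 and -5.47 to 5.13 for Nlrc5. The day 2 values ran from -0.041 to 0.59 for B2m, -0.28 to 0.13 for H2-K1, -1.65 to 1.201 for Tap1, -0.26 to 0.28 for Tap2 and -0.35 to 0.48 for Tapbp. The cause of these changes was not tested. No paired analysis was possible because the replicate numbers in the labels are wells of a plate and the plates carry no number; day is a term of the fit. Depth limits Nlrc5, at 112 counts or fewer per plate.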
